A study of Mus musculus with 8 samples.

Results

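Kinesins and dyneins are the motor proteins that walk along microtubules. The 64 genes described here are the kinesin, kinesin light chain, dynein and dynactin genes of the array, taken by symbol (Kif and Kifc genes, Klc1 to Klc4, genes beginning with Dync1 or Dync2, the dynein light chain genes beginning with Dynll, Dynlr or Dynlt, and Dctn1 to Dctn6). They are 64 of 19494 named genes and 64 of 22142 tested probe sets, 1 probe set each, with 42 kinesin and 22 dynein or dynactin genes. They were divided by textbook role into 15 mitotic motors, 16 motors of vesicle and organelle transport, 10 ciliary motors, 19 subunits of cytoplasmic dynein and dynactin, and 4 others.

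Expression was measured on Clariom S arrays in alphaTC1.9 cells, a mouse glucagon-producing line descended from a pancreatic tumour driven by SV40 large T antigen under a glucagon gene promoter. The 4 IDE-KD arrays hold RNA from cells whose insulin-degrading enzyme was targeted with a small interfering RNA, and the 4 control arrays hold RNA from control cells of the same line. The medium of both groups held 16 mM glucose, and no other treatment is named. The sources used here do not say how the control cells were handled or how long the knockdown lasted. Each group's arrays are labelled as biological replicates without separate cultures being named, so the p-values measure only the spread among these samples, and that spread may be partly technical.

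Most kinesins move cargo towards the plus ends of microtubules, which usually point to the cell's edge, and cytoplasmic dynein moves cargo towards the minus ends near the centrosome, with dynactin as its cofactor. One set of kinesins builds and elongates the mitotic spindle and completes cell division, and is made mainly in dividing cells. Another set, with kinesin-1 and kinesin-3 at its centre, carries secretory granules, mitochondria and endosomes in hormone-secreting cells, and kinesin-2 and dynein-2 run along the cilium.

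The targeted transcript, Ide, read 7.91, 8.14, 7.92 and 8.05 on the IDE-KD arrays and 8.66, 8.62, 8.72 and 8.48 on the control arrays (log2 expression). Every IDE-KD array lay below every control array, with a log2 difference of -0.62 (SE 0.12, exact two-sided permutation p = 0.0286, the smallest that 4 against 4 arrays allow). Its adjusted p in limma was 1.00. Gcg, the glucagon precursor, averaged 12.06 ± 0.10 on IDE-KD arrays and 12.06 ± 0.07 on control arrays (SD, n = 4 each). The 10 measured markers of other islet cells and of fibroblasts, immune cells and endothelium were nowhere above the 95th percentile of the intron control probe sets, the level used here to mark a clear signal. Of these, Sst and Col1a1 were above the intron median on all 8 arrays. Irx2, an alpha cell marker like Gcg, was above the 95th percentile on all 8 arrays, but Ttr, a further alpha cell marker, on none. Correlations between arrays ran from 0.984 to 0.993. The SD of all tested log2 values was 2.16, 2.25, 2.13 and 2.23 on IDE-KD arrays 1 to 4, against 2.20, 2.24, 2.22 and 2.22 on control arrays 1 to 4, so IDE-KD arrays 1 and 3 had the narrowest spread of values.

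No motor gene differed between IDE-KD and control cells after adjustment over all probe sets. With limma, 0 of 64 motor genes had an adjusted p under 0.05, as did 0% of all 22142 probe sets, and no adjusted p fell below 1.00. At an unadjusted p under 0.05 there was 1 motor gene, Kif6, against 4.59% of all probe sets. It was higher in IDE-KD cells, where 2.69% of all probe sets were higher at that level, and 0 motor genes were lower, against 1.91% of all. These counts lay between 0 and 2 in each direction when any 1 array was left out.

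The members lay close to equality between the groups. Of the 64 log2 differences, 35 were above 0 and 29 below, with a median of 0.01 against 0.0074 over all tested probe sets, and they ran from -0.26 to 0.36. The 95% confidence interval lay within a 1.5-fold change either way for 57 of the 64, as it did for 83.6% of all probe sets. The 7 members with a wider interval were Dync1i1, Dync2h1, Dync2li1, Dynlrb1, Kif12, Kif4-ps and Kifc2. Of the 64, 26 had no array above the intron 95th percentile. At so low a signal a narrow interval does not show that a transcript was unchanged. The groups did not overlap at 2 members, Kif6 and Kif11, against 2.80% of all probe sets.

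**Figure D1:**
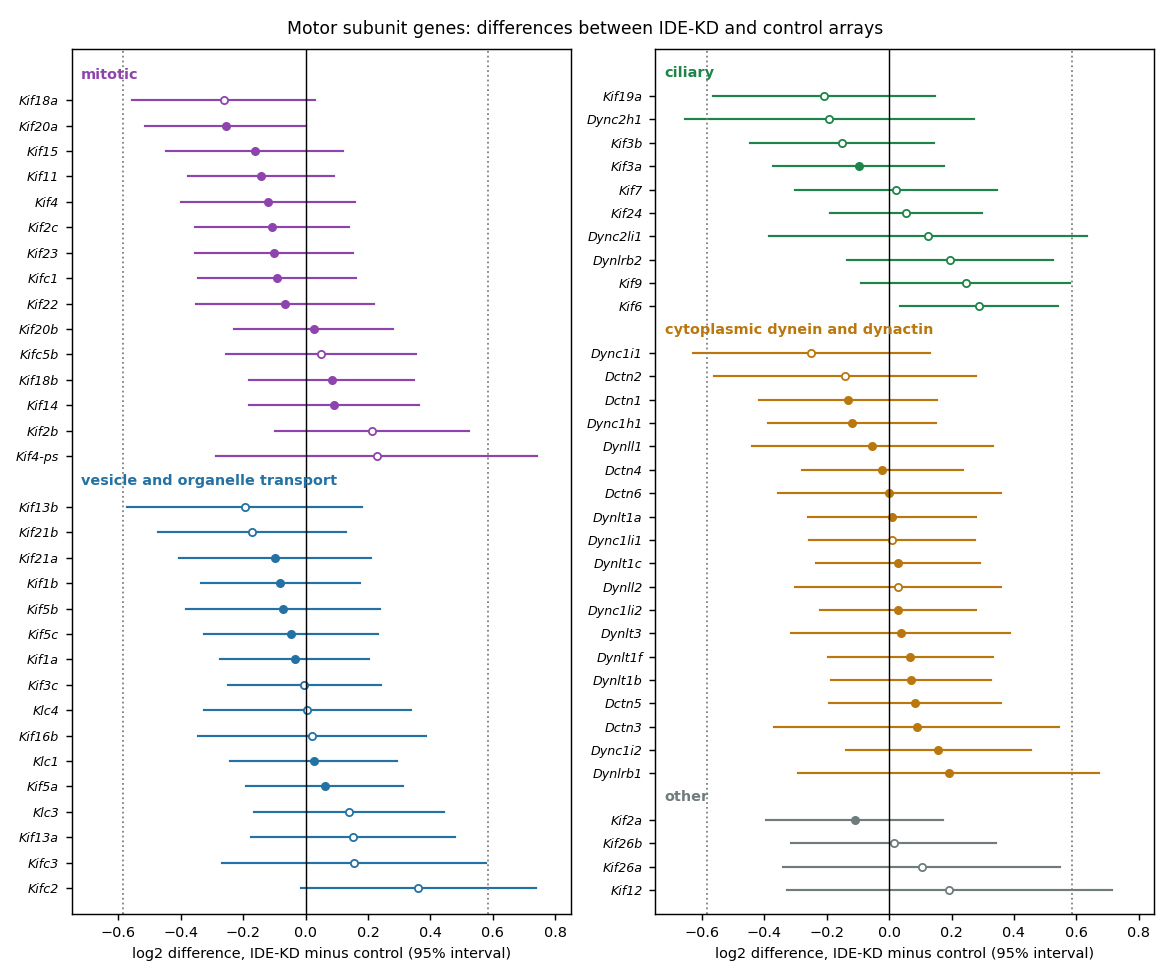
Log2 difference, IDE-KD minus control, of the 64 motor genes by class, each with its 95% confidence interval from limma over 4 and 4 arrays; filled points mark genes above the intron 95th percentile on all 8 arrays, open points the others, and dotted lines a 1.5-fold change. The differences ran from -0.26 to 0.36, and Kif6 is the member whose interval leaves out 0.

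Clear signals were common among motor genes. The log2 value was above the intron 95th percentile on all 8 arrays for 35 members, against 21.3% of all probe sets, and on at least 1 array for 38 members, against 30.0%. It was above the intron median on all 8 arrays for 55 members, against 56.1% of all probe sets. The 35 comprised 11 of the 15 mitotic motors, 7 of the 16 transport motors, 1 of the 10 ciliary motors (Kif3a), 15 of the 19 dynein and dynactin subunits, and Kif2a. Fewer transcripts per cell and fewer cells expressing a transcript cannot be told apart in such bulk RNA.

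The mitotic kinesins had a median log2 difference of -0.09 over 15 genes, with 6 higher and 9 lower in IDE-KD cells. Among all probe sets 47.9% were lower. Over the 11 with a clear signal on all 8 arrays the median was -0.10, with 3 higher and 8 lower. None of them had an adjusted p under 0.05 in limma, and the smallest unadjusted p was 0.0502.

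Kif20a, which brings the chromosomal passenger complex to the middle of the anaphase spindle, read 8.55, 8.64, 8.47 and 8.79 on the IDE-KD arrays and 8.74, 8.91, 8.93 and 8.90 on the control arrays. IDE-KD array 4 lay above control array 1, and the other 3 IDE-KD arrays lay below all controls. The log2 difference was -0.26 (SE 0.12, 95% confidence interval -0.51 to 0.00023). The exact two-sided permutation p was 0.0571, with an adjusted p of 1.00 in limma. Kif18a, a kinesin-8 that limits chromosome movements at metaphase, read 6.02, 6.48, 6.27 and 6.39 in IDE-KD cells and 6.65, 6.65, 6.34 and 6.58 in control cells, a difference of -0.26 (SE 0.13, exact two-sided permutation p = 0.0857). Its groups overlapped, none of its arrays passed the intron 95th percentile, and the difference was -0.17 without IDE-KD array 1.

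Kif11, the kinesin-5 that pushes the spindle poles apart, read 7.61, 7.53, 7.48 and 7.42 in IDE-KD cells and 7.66, 7.65, 7.63 and 7.67 in control cells. All 4 IDE-KD arrays lay below all 4 control arrays, as at 1.41% of all probe sets, and the gap between the nearest arrays was narrow. The log2 difference was -0.14 (SE 0.11, 95% confidence interval -0.38 to 0.09). The exact two-sided permutation p was 0.0286, with an adjusted p of 1.00 in limma. Quantile normalization and cyclic loess each left the groups of Kif11 overlapping. Kif15, a kinesin-12 that helps to hold the spindle bipolar, read 7.78, 7.67, 7.39 and 7.57 in IDE-KD cells and 7.83, 7.76, 7.92 and 7.55 in control cells (difference -0.16, SE 0.13), and its groups overlapped.

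The motors of the central spindle and of cytokinesis had differences in both directions. Kif23, which forms centralspindlin with Racgap1, averaged 7.34 ± 0.13 in IDE-KD cells and 7.44 ± 0.08 in control cells. Kif4, a chromosome-bound kinesin that sets the length of the central spindle, averaged 7.36 ± 0.07 in IDE-KD cells and 7.48 ± 0.21 in control cells. Kif14, needed for cytokinesis, averaged 7.70 ± 0.11 in IDE-KD cells and 7.61 ± 0.17 in control cells (SD, n = 4 each). Kif20b, which acts at abscission, had a difference of 0.03 (SE 0.12), and its 4 IDE-KD arrays lay within 9.09 to 9.14, inside the control range of 8.87 to 9.21.

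The depolymerase Kif2c read 8.83, 8.82, 8.79 and 8.57 in IDE-KD cells and 8.92, 8.83, 8.88 and 8.82 in control cells, a difference of -0.11 (SE 0.11) in which IDE-KD array 4 stood apart from the rest. Kif18b, which trims astral microtubules, differed by 0.08 (SE 0.12), and Kif22, a chromosome-arm motor, by -0.07 (SE 0.13). Kifc1, a minus-end motor that bundles spindle microtubules, read 8.04, 7.82, 7.72 and 7.88 in IDE-KD cells and 7.95, 8.03, 7.88 and 7.97 in control cells, a difference of -0.09 (SE 0.12). Kifc1 and Kifc5b are close relatives, and Kif4-ps is a pseudogene of Kif4. Their sequence identity was not computed, and whether their probe sets share signal was not tested, so their separate values are uncertain. Kif2b and Kif4-ps had no array above the intron 95th percentile.

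**Figure D2:**
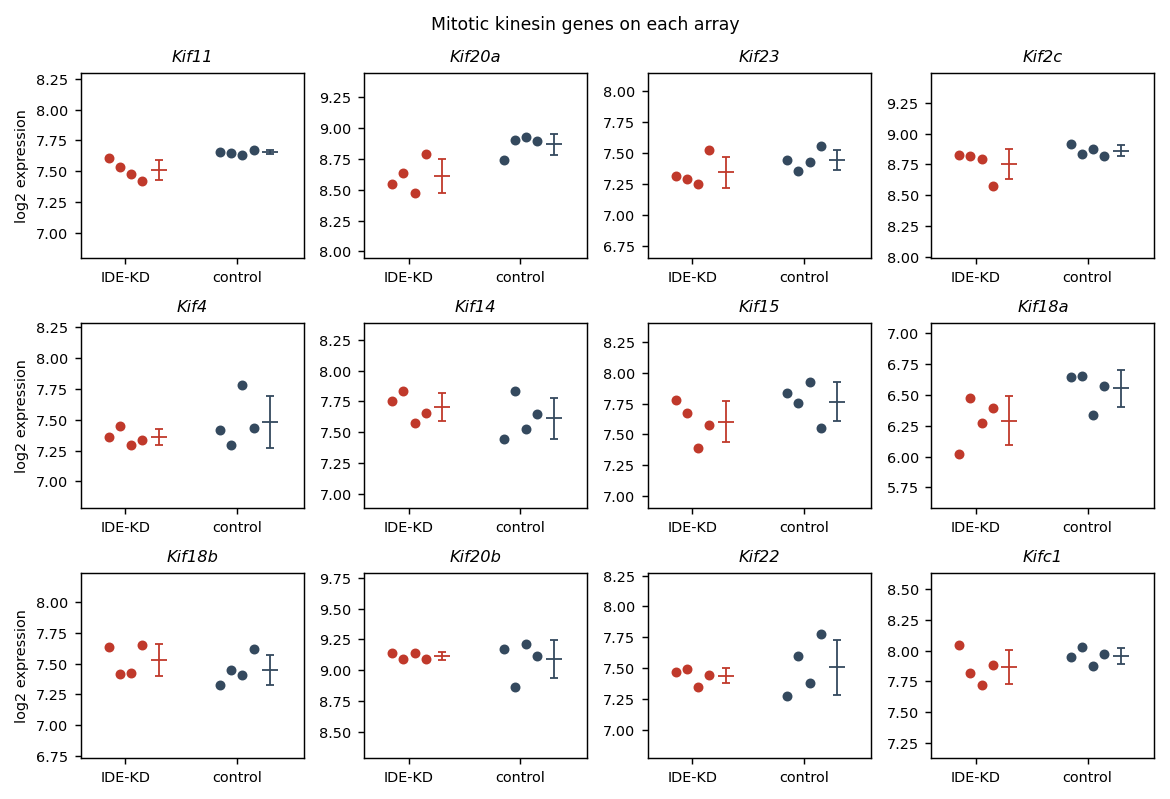
Log2 expression of mitotic kinesin genes on each array, IDE-KD left of control, with points in array order 1 to 4 and the group mean as a dash with its SD (n = 4) beside them. The 4 IDE-KD arrays of Kif11 lie below its 4 control arrays, while those of Kif20a and Kif18a overlap the controls.

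The mitotic kinesin genes also share letters in their promoters, which the choice by symbol did not use. RefSeq promoter windows (build GRCm38.p6, 250 bases before to 50 bases after the start) were found for 48 of the 64 members and for 17491 protein-coding genes. The cell cycle genes homology region, a short element by which the DREAM complex represses genes of late cell division outside the G2 and M phases, has the core TTTGAA, which reads TTCAAA on the other strand. It was found on either strand in 11 of the 13 mitotic genes with a window, against 3 of 35 members of the other classes and 18.5% of all protein-coding genes. It began within 50 bases of the start in 9 of the 13, against 4.59% of all. Kif18a and Kif2b had no match. Kif20a and Kif4-ps had no window and were not searched. These letters were among 12 motifs searched, and the motifs described and the windows shown were picked after the matches were seen.

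The following 100-base stretches, 60 bases before to 40 bases after the start on the gene's own strand, show how close to the start the core lies in genes whose values are given above. They are Kif11 (chr19:37376322-37376421, plus strand), Kif15 (chr9:122951021-122951120, plus strand), Kif22 (chr7:127042381-127042480, minus strand), Kif23 (chr9:61946760-61946859, minus strand), Kif20b (chr19:34922298-34922397, plus strand) and Kifc1 (chr17:33890594-33890693, minus strand), written 5′ to 3′ with the core of either strand in capitals.
Kif11: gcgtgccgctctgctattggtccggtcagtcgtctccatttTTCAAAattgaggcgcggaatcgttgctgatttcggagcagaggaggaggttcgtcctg
Kif15: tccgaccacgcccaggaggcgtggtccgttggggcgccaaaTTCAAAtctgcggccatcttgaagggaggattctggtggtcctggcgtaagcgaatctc
Kif22: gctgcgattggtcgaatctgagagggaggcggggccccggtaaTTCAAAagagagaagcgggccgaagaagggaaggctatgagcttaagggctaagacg
Kif23: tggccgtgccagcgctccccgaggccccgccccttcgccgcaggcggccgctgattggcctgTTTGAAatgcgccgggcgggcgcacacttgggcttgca
Kif20b: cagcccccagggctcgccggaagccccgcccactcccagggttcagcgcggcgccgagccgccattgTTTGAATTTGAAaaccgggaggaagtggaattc
Kifc1: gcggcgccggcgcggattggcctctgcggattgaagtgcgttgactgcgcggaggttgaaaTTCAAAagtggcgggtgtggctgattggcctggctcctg

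The core faces either way in these genes, and Kif20b carries it in tandem. The letters CCAAT, the box bound by NF-Y, were found in 9 of the 13 mitotic genes, against 42.3% of all protein-coding genes; they read ATTGG on the other strand. In 7 mitotic genes a CCAAT box began 9 to 46 bases before a core: Kif11, Kif18b, Kif22, Kif23, Kif4, Kifc1 and Kifc5b. How often such pairs occur in other genes was not counted, so this number has no share to compare it with. The spacing taken was the shortest in each gene. In Kif22 it belongs to a core at -215, outside the stretch shown, and not to the core at -17. The close relatives Kifc1 and Kifc5b both had a spacing of 46 bases. They are counted as separate genes here and in the counts of the core, although their promoters may not be independent. Of the further motifs, TTTAAA was in 2 of the 13 mitotic genes (13.8% of all), GGGCGG in 6 (49.2%), CTTCCGG in 6 (12.9%), TTTGAAA, which contains the core, in 5 (6.55%), and GTTGCC in 2 (14.4%). A loose form of the whole X-box with a single fixed spacing, which can contain GTTGCC, was in 2 of the 13 (2.26% of all). TTTCCCGC was in 0 mitotic genes (1.61% of all), as were a strict X-box palindrome (0.0172%) and the palindromic motifs of BANP (0.755%) and NRF1 (1.47%). All were searched on both strands, and a match describes letters and not a bound site.

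**Figure D3:**
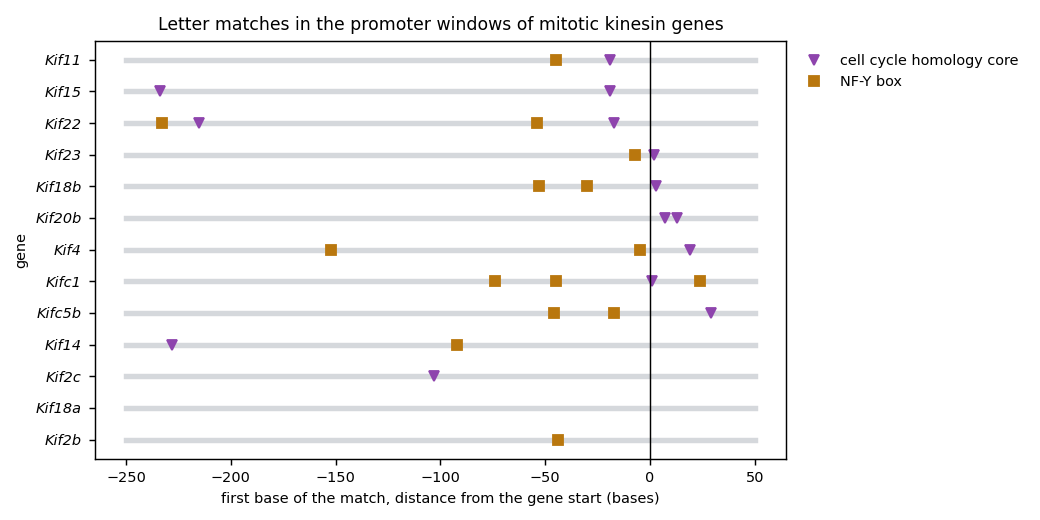
Position of the cell cycle homology core (triangles) and the NF-Y box (squares) in the promoter windows of 13 mitotic kinesin genes, by distance in bases from the gene start, with each window as a grey bar. Core matches gather near the start in 9 of the 13 genes, and Kif18a and Kif2b have none.

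Among proteins that work with the mitotic motors no gene passed adjustment either. Of 24 such genes listed, 23 were measured, 8 higher and 15 lower with a median log2 difference of -0.03, and 0 had an adjusted p under 0.05. Cdca8, a subunit of the passenger complex that Kif20a carries, read 7.25, 7.17, 7.23 and 7.12 in IDE-KD cells and 7.46, 7.41, 7.42 and 7.46 in control cells, so its groups did not overlap. Its log2 difference was -0.25 (SE 0.11, exact two-sided permutation p = 0.0286, adjusted p in limma 1.00). The other members of that complex listed, Aurkb, Incenp and Birc5, each had overlapping groups. Mki67, a proliferation marker, read 10.98, 10.92, 10.93 and 10.85 in IDE-KD cells and 10.88, 10.77, 10.94 and 10.96 in control cells, a difference of 0.03 (SE 0.11). Of the other listed markers of cycling cells, Aurkb differed by 0.05 (SE 0.13), Plk1 by -0.13 (SE 0.13), Top2a by -0.08 (SE 0.13) and Cdk1 by -0.05 (SE 0.14). All of these had overlapping groups, and Ccnb1 was not measured.

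The motors of vesicle and organelle transport split evenly, with 8 of 16 higher and 8 lower in IDE-KD cells and a median log2 difference of 0.00046. None had an adjusted p or an unadjusted p under 0.05 in limma, and 15 of the 16 confidence intervals lay within a 1.5-fold change. However, 9 of the 16 had no array above the intron 95th percentile.

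Kif5b, the widely expressed heavy chain of kinesin-1, read 8.74, 8.65, 8.20 and 8.75 in IDE-KD cells and 8.57, 8.57, 8.82 and 8.66 in control cells. IDE-KD array 3 was the lowest of the 8, and the difference was -0.07 (SE 0.14, 95% confidence interval -0.38 to 0.24). Without that array it was 0.06. The neuronal heavy chains Kif5a and Kif5c, both with a clear signal on all 8 arrays, differed by 0.06 (SE 0.12) and -0.05 (SE 0.13). Klc1, a light chain that links kinesin-1 to cargo, read 9.05, 9.11, 9.26 and 9.20 in IDE-KD cells and 8.96, 9.08, 9.12 and 9.36 in control cells, while Klc3 and Klc4 had no array above the intron 95th percentile.

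Kif1a, the kinesin-3 that carries dense-core granules and synaptic vesicle precursors, varied little between arrays. It read 9.42, 9.19, 9.30 and 9.32 in IDE-KD cells and 9.29, 9.31, 9.38 and 9.39 in control cells. The difference was -0.04 (SE 0.11, 95% confidence interval -0.27 to 0.20). Its relative Kif1b, which also moves mitochondria, read 8.51, 8.46, 8.38 and 8.27 in IDE-KD cells and 8.53, 8.43, 8.62 and 8.37 in control cells, a difference of -0.08 (SE 0.12).

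The endosomal kinesins gave low signals, with no array above the intron 95th percentile. Kif13a differed by 0.15 (SE 0.15), Kif13b by -0.20 (SE 0.17), and Kif16b, which moves early endosomes, by 0.02 (SE 0.17). Kif21a, a kinesin that restrains microtubule growth, was above that percentile on all 8 arrays, and Kif21b, Kif3c and Kifc3 on none.

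Kifc2, a minus-end kinesin, had the largest difference of the 64, 0.36 (SE 0.17, 95% confidence interval -0.02 to 0.74), and was singled out after its values were seen. It read 4.09, 4.68, 4.79 and 4.78 in IDE-KD cells and 4.12, 4.01, 4.22 and 4.54 in control cells. IDE-KD array 1 lay among the controls and the other 3 above all of them. The signal passed the intron median on 5 of the 8 arrays and the intron 95th percentile on none. The exact two-sided permutation p was 0.114 and the adjusted p in limma 1.00.

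The adaptors and regulators that load kinesin and dynein were measured for 27 of 32 genes listed, 8 higher and 19 lower, with a median log2 difference of -0.06 and 0 at an adjusted p under 0.05. At an unadjusted p under 0.05 there were 2, both lower, against 1.91% of all probe sets lower. Mapk8ip1, a scaffold that binds kinesin light chains, read 8.33, 7.83, 7.98 and 8.12 in IDE-KD cells and 8.26, 8.38, 8.35 and 8.42 in control cells (difference -0.28, SE 0.13, exact two-sided permutation p = 0.0571). Bicd2, which joins dynein to dynactin and to Rab6 vesicles, read 6.18, 5.75, 5.75 and 5.68 in IDE-KD cells and 5.98, 6.17, 6.22 and 6.30 in control cells (difference -0.33, SE 0.14, exact two-sided permutation p = 0.0857). In both genes IDE-KD array 1 overlapped the controls, and Bicd2 had no array above the intron 95th percentile. Madd, singled out after its values were seen, was the 1 gene of the 27 whose groups did not overlap. It was lower in IDE-KD cells (difference -0.23, SE 0.11, exact two-sided permutation p = 0.0286), as were 1.41% of all probe sets without overlap. None of its arrays passed the intron 95th percentile.

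The ciliary motors were mostly dim, and Kif3a alone passed the intron 95th percentile on all 8 arrays. Kif3a, a subunit of the kinesin-2 that drives transport into the cilium, read 7.28, 7.30, 7.13 and 7.58 in IDE-KD cells and 7.45, 7.29, 7.47 and 7.48 in control cells, a difference of -0.10 (SE 0.13) with overlapping groups. Its partner Kif3b read 5.69, 6.23, 5.87 and 6.17 in IDE-KD cells and 6.15, 6.13, 6.10 and 6.18 in control cells, a difference of -0.15 (SE 0.14). For Kif3b, IDE-KD arrays 1 and 3 were the lowest of the 8, and without them the difference was 0.06.

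Of the 10 ciliary motors, Dync2h1 and Dync2li1 had the largest SDs in both groups. Both are subunits of dynein-2, which brings cargo back from the ciliary tip. Dync2h1, the heavy chain, read 6.53, 6.50, 5.78 and 5.74 in IDE-KD cells and 6.14, 6.63, 6.57 and 5.98 in control cells. Dync2li1, a light intermediate chain, read 4.91, 6.02, 5.25 and 5.77 in IDE-KD cells and 5.42, 5.83, 5.04 and 5.15 in control cells. Their differences of -0.19 (SE 0.21) and 0.12 (SE 0.23) had intervals that reached past 1.5-fold. Kif7, which acts in Hedgehog signalling at the ciliary tip, differed by 0.02 (SE 0.15), and Kif24, which holds back cilium assembly, by 0.05 (SE 0.11).

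Kif6, a kinesin of motile cilia, read 2.89, 2.67, 2.96 and 2.82 in IDE-KD cells and 2.53, 2.62, 2.62 and 2.42 in control cells. All IDE-KD arrays lay above all control arrays, as at 1.39% of all probe sets, but every value was under the intron median of its array. The log2 difference was 0.29 (SE 0.12, exact two-sided permutation p = 0.0286, adjusted p in limma 1.00), and no fold change is given at that signal. Kif9 and Dynlrb2, also tied to motile cilia, were likewise under the intron median on all 8 arrays. The class had 6 higher and 4 lower, with a median of 0.04, which was -0.12 over the 6 genes left when dim probe sets were removed.

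GTTGCC, the core of the X-box read by RFX factors at ciliary genes, was found in 5 of the 8 ciliary motor genes with a promoter window, against 14.4% of all protein-coding genes, and in 4 of 10 transport genes. A loose form of the whole X-box with a single fixed spacing was in 1 of the 8 ciliary genes, Kif9, against 2.26% of all. Whole X-boxes with another spacing were not searched, and the letters GTTGCCtagcaac in Dynlrb2 below could not match the form used. Stretches of 100 bases of 3 genes, picked after the matches were seen, are shown as examples, 5′ to 3′ with GTTGCC in capitals. They run from -110 to -10 bases of the start in Dynlrb2, which leaves out the start itself, and from 60 bases before to 40 bases after it in the others. They are Dynlrb2 (chr8:116504905-116505004, plus strand), Kif24 (chr4:41464809-41464908, minus strand) and Kif9 (chr9:110476898-110476997, plus strand).
Dynlrb2: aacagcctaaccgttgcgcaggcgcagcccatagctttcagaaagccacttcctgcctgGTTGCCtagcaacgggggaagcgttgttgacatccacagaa
Kif24: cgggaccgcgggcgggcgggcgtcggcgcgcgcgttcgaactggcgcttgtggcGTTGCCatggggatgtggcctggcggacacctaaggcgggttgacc
Kif9: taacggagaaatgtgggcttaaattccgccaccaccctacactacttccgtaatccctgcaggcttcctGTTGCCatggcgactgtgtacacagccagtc
The other ciliary genes with a match were Dync2h1 and Kif3a. Dynlrb2 and Kif9 hold these letters although both were under the intron median on every array.

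Of the intraflagellar transport proteins, the cargo trains moved by kinesin-2 and dynein-2, 20 of 21 listed were measured, 9 higher and 11 lower with a median log2 difference of -0.02 and 0 at an adjusted p under 0.05. Ift57 read 7.05, 7.51, 7.05 and 7.19 in IDE-KD cells and 7.01, 6.99, 6.69 and 6.89 in control cells, a difference of 0.31 (SE 0.14, exact two-sided permutation p = 0.0286, adjusted p in limma 1.00) with no overlap of the groups. Without IDE-KD array 2 the difference was 0.20. Ift52 was the other member of that list whose groups did not overlap, also higher in IDE-KD cells, which makes 2 of 20 against 1.39% of all probe sets with no overlap and higher values. Its unadjusted p in limma was 0.120. Ift57 was above the intron 95th percentile on 6 of the 8 arrays and Ift52 on 1.

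Cytoplasmic dynein and dynactin subunits had 12 higher and 7 lower of 19, with a median log2 difference of 0.03 and 0 at an adjusted or unadjusted p under 0.05 in limma. Dync1h1, the heavy chain that holds the motor, read 9.57, 9.14, 9.40 and 9.51 in IDE-KD cells and 9.55, 9.56, 9.53 and 9.47 in control cells. IDE-KD array 2 was its lowest, and the difference was -0.12 (SE 0.12), or -0.03 without that array.

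The intermediate chains bind dynactin. Dync1i2, the widely expressed one, read 7.27, 7.84, 7.36 and 7.49 in IDE-KD cells and 7.30, 7.37, 7.41 and 7.25 in control cells. The difference of 0.16 (SE 0.14) was 0.043 without IDE-KD array 2. Dync1i1, the neuronal one, read 5.68, 5.91, 5.23 and 5.53 in IDE-KD cells and 5.79, 6.02, 5.44 and 6.10 in control cells, with no array above the intron 95th percentile. The difference of -0.25 (SE 0.18) was -0.13 without IDE-KD array 3 and -0.38 without control array 3. Both pairs of groups overlapped. The light intermediate chains Dync1li1 and Dync1li2, which bind cargo adaptors, differed by 0.0089 (SE 0.12) and 0.03 (SE 0.12).

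Within the dynein and dynactin class, the spread among IDE-KD arrays was widest for Dctn3 (SD 0.52 in IDE-KD cells and 0.12 in control cells), Dynlrb1 (SD 0.50 in IDE-KD cells and 0.27 in control cells) and Dynll1, of which the first and second were singled out after their values were seen. Dynll1, the LC8 light chain shared with many other complexes, read 7.43, 8.44, 7.97 and 8.004 in IDE-KD cells and 8.11, 8.08, 7.93 and 7.95 in control cells. Its SD was 0.41 in IDE-KD cells and 0.09 in control cells, and its difference of -0.05 (SE 0.18) was 0.12 without IDE-KD array 1 and -0.21 without IDE-KD array 2. Dynll2, its close relative, averaged 5.88 ± 0.15 in IDE-KD cells and 5.85 ± 0.28 in control cells (SD, n = 4 each), where control array 4 read 5.43 and the other controls 5.94 to 6.04. The genes Dynlt1a, Dynlt1b, Dynlt1c and Dynlt1f are close relatives whose sequence identity was likewise not computed, so their separate values are uncertain. All 4 of them were above the intron 95th percentile on every array, and none had a p under 0.05.

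In dynactin, Dctn1, the subunit that grips the microtubule, read 7.66, 7.40, 7.46 and 7.76 in IDE-KD cells and 7.57, 7.73, 7.59 and 7.92 in control cells (difference -0.13, SE 0.13). Dctn2, which holds the shoulder of the complex, read 6.94, 7.39, 6.89 and 7.60 in IDE-KD cells and 7.25, 7.62, 6.93 and 7.58 in control cells (difference -0.14, SE 0.19). Both sets of values overlapped between the groups. Dctn3, Dctn4, Dctn5 and Dctn6, the remaining subunits, each had an unadjusted p above 0.05, and all 4 were above the intron 95th percentile on every array.

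IDE-KD arrays 1 and 3 read low for the dynein and dynactin class. Its mean per array, relative to the control mean of each gene, was -0.18, 0.18, -0.10 and 0.11 on IDE-KD arrays 1 to 4, against -0.01, 0.06, -0.07 and 0.02 on control arrays 1 to 4. The number of its 19 genes above their control mean was 4, 15, 8 and 15 on the IDE-KD arrays, against 9, 16, 9 and 11 on the control arrays. The median SD over the class was 0.190 in IDE-KD cells and 0.123 in control cells, beside 0.212 and 0.173 over all probe sets.

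The same arrays were low for other lists. The mitotic partners averaged -0.12, 0.06, -0.17 and 0.02 on IDE-KD arrays 1 to 4, against -0.01, 0.01, -0.03 and 0.03 on control arrays 1 to 4. The intraflagellar transport proteins averaged -0.14, 0.23, -0.18 and 0.05 on IDE-KD arrays 1 to 4, against 0.02, 0.03, -0.07 and 0.02 on control arrays 1 to 4. The mitotic kinesins did not follow, with 0.01, -0.05, -0.03 and -0.10 on IDE-KD arrays 1 to 4, against -0.04, 0.01, 0.02 and 0.02 on control arrays 1 to 4. These are the arrays with the narrowest spread of log2 values, and the part of that spread in the class means was not tested. Without IDE-KD arrays 1 and 3 the dynein and dynactin median was 0.13, and 6 motor genes were higher and 1 lower at an unadjusted p under 0.05, against 4.88% of all probe sets higher and 3.02% lower in that fit. At an adjusted p under 0.05 there were 0 motor genes and 0% of all probe sets. These arrays were left out after the data were seen.

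**Figure D4:**
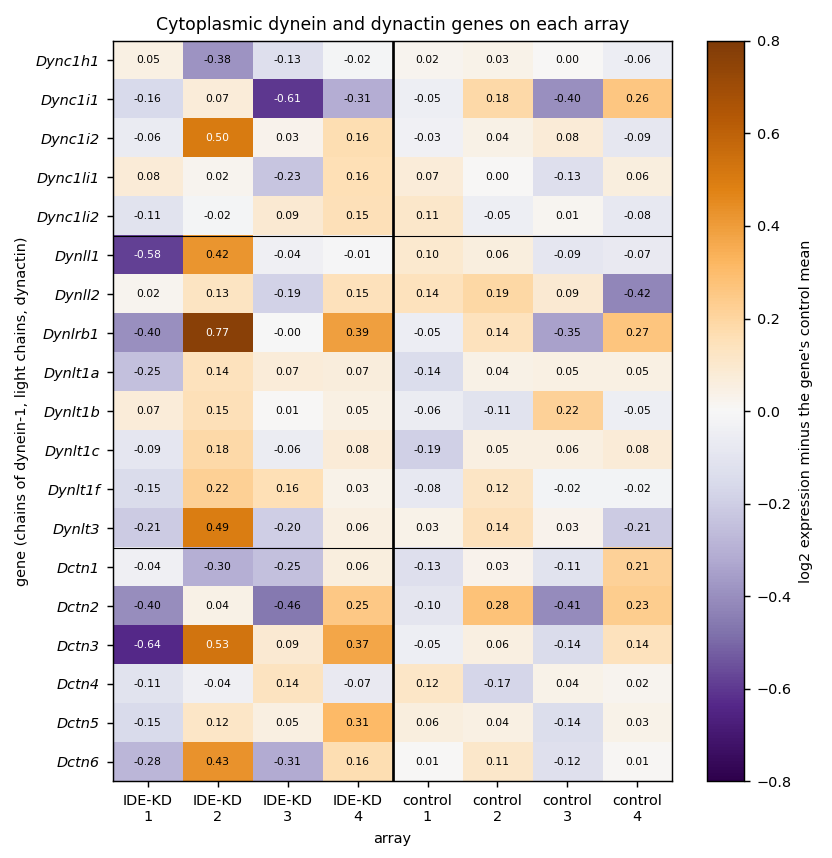
Log2 expression of the 19 cytoplasmic dynein and dynactin genes on each of the 8 arrays, as the difference from the gene's control mean, IDE-KD arrays left of control arrays. IDE-KD array 1 has 4 genes above their control mean and IDE-KD array 2 has 15.

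**Figure D5:**
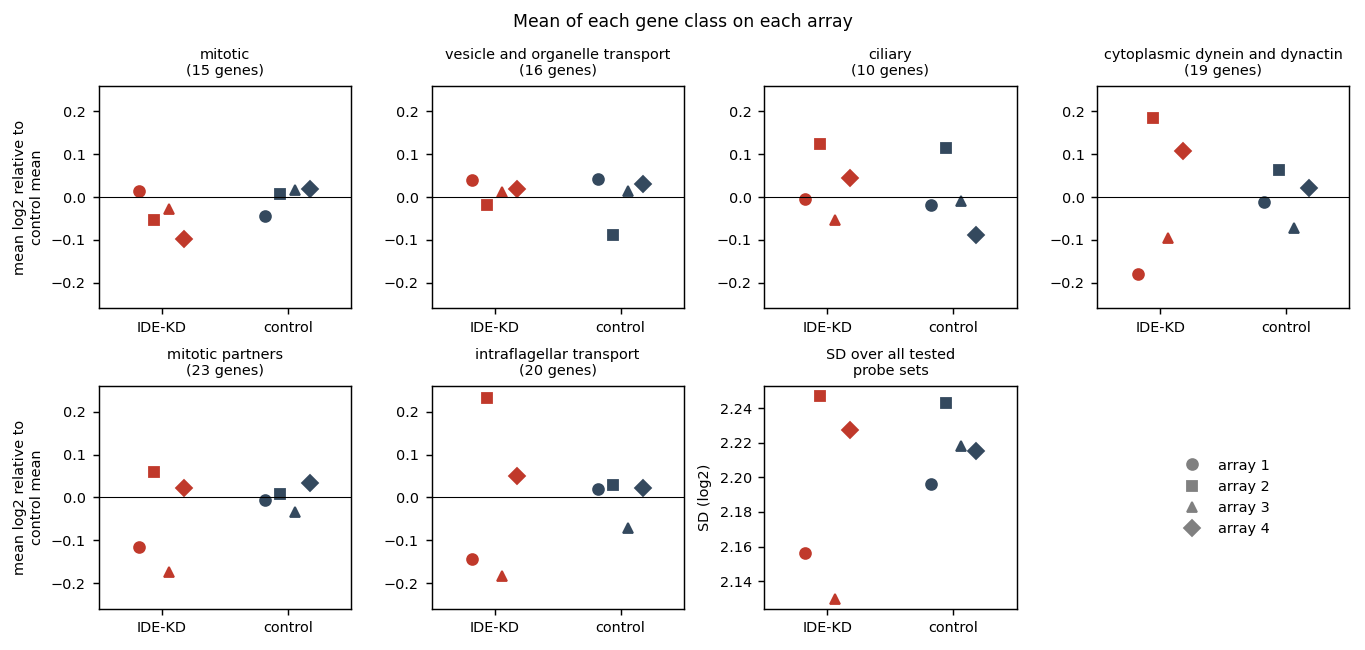
Mean log2 expression of each class of genes on each array, relative to the control mean, with the SD over all tested probe sets, IDE-KD left of control and a symbol for each array number. IDE-KD arrays 1 and 3 are lowest for dynein and dynactin (-0.18 and -0.10) and not for the mitotic kinesins (0.01 and -0.03).

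Of the 4 remaining kinesins, Kif2a, a microtubule depolymerase, was above the intron 95th percentile on all 8 arrays, and Kif12, Kif26a and Kif26b on none. Each had overlapping groups, and the smallest unadjusted p among them was 0.411.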

How the data were processed

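The authors deposited 1 table of log2 expression values, 1 column per array, for 4 IDE-KD and 4 control arrays. Per the submitters' processing notes the tools were RMA, oligo and limma, with no versions recorded. The table held 29129 rows: 22142 transcript clusters, which were tested, 6923 array control rows and 64 unplaced rows. The values were used as deposited. Probe sets were named by the platform table, and all 64 member identifiers were found in the mouse gene table with 0 symbols updated. All 8 arrays entered 1 fit of IDE-KD minus control in R 4.3.3 with limma 3.58.1 (lmFit, eBayes), with no covariates and Benjamini-Hochberg adjustment over 22142 rows, checked on simulated data. Single values had an exact two-sided permutation test. Named were Ide, listed motors of each class whatever their values, further members with an unadjusted p under 0.05 or with groups that did not overlap, and companions with an unadjusted p under 0.05. Ift52 and Madd, companions whose groups did not overlap, were added after the values were seen. The members, classes and lists were chosen with earlier results of these data known. Alternatives were other scalings, array weights, another variance prior, filters on dim rows, a replicate block and leaving out arrays.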

Additional observations from a re-analysis of the deposited data

Results flagged for a closer look

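In 4 of 76 groups of 4 arrays examined (37 motor genes and Ide, in both groups), 1 array stood far from the other 3, and chance gives this in about 1 in 20 groups. For Kif20a, control array 1 read 8.743, and the other control arrays read 8.90 to 8.93. For Kif2c, IDE-KD array 4 read 8.572, and the other IDE-KD arrays 8.79 to 8.83. For Kif3a, control array 2 read 7.291, and the other control arrays 7.45 to 7.48. For Dynll2, control array 4 read 5.434, and the other control arrays 5.94 to 6.04.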

How the results depend on the processing

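The number of motor genes at an adjusted p under 0.05 was 0 under every alternative run. The count higher at an unadjusted p under 0.05 was 1, and it was 0 with quantile normalization, with a trended robust prior and with either filter on dim rows, 2 with array weights (Kifc2 and Kif6), and 6 without IDE-KD arrays 1 and 3, an alternative chosen after seeing the data (Dync1i2, Dynlrb1, Dctn3, Kif9, Kifc2 and Dync2li1). The count lower was 0, and it was 1 with the trended robust prior and with either filter (Kif20a each time) and 1 without IDE-KD arrays 1 and 3 (Kif19a). Leaving out 1 array gave 0 to 2 higher (2 without IDE-KD array 1, 0 without control array 1) and 0 to 2 lower (2 without IDE-KD array 4 and 2 without control array 3). Removing rows at or under the median control row changed the ciliary median to -0.12, and the stricter filter gave -0.10 for ciliary motors (1 gene), -0.11 for the other kinesins (1 gene) and -0.047 for transport motors (7 genes). Motor genes with no overlap numbered 1 with quantile normalization and 1 with cyclic loess. Those above background on all 8 arrays numbered 55 with the intron median and 5 with the intron 99th percentile as the threshold. The mitotic median lay between -0.10 and -0.046 with 1 array left out.

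The labels do not say whether the replicate numbers pair the arrays, and the main fit treated them as unpaired. Same-numbered arrays had correlations of deviations of 0.102, 0.129, 0.088 and 0.098, all positive. Differently numbered arrays ran from -0.225 to 0.209, and not every array correlated best with its own number. These values do not settle whether the numbers mark pairs. With the replicate block 2 motor genes (Kifc2 and Kif6) were higher and 0 lower at an unadjusted p under 0.05, and 0 passed adjustment.

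Signs turned for some members, none of them at an adjusted p under 0.05. Dync1li1 was -0.0046 with array medians subtracted, Kif7 -0.018 with quantile normalization and -0.022 with cyclic loess, and Kif20b -0.0033 with array weights. Without IDE-KD arrays 1 and 3, Kif5b was 0.044, Kif20b -0.0017, Kif3a 0.020, Kif3b 0.056, Kif7 -0.011, Dynll1 0.20 and Dctn2 0.15. With 1 array left out the range crossed 0 for Dync1li1 (-0.041 to 0.087), Dync1li2 (-0.012 to 0.075), Dync2li1 (-0.052 to 0.32), Dynll1 (-0.21 to 0.12), Dynll2 (-0.11 to 0.10), Kif16b (-0.086 to 0.18), Kif1a (-0.072 to 0.0036), Kif20b (-0.049 to 0.067), Kif22 (-0.14 to 0.023), Kif5b (-0.13 to 0.057), Kif5c (-0.11 to 0.031), Kif7 (-0.10 to 0.10) and Klc1 (-0.033 to 0.10). Of 42 genes followed with 1 array left out, these 13 turned sign, 22 kept their sign but moved by over 1.5 times without at least 1 array, and 7 stayed within 1.5 times (Bicd2, Cdca8, Kif11, Kif20a, Kif6, Kifc2 and Mapk8ip1). The causes were not tested. The difference of Ide lay between -0.66 and -0.58 with 1 array left out. The number of arrays limits the precision, with a median interval half-width of 0.29 over the motor genes, and 26 of them had no array above the intron 95th percentile.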
